A study of Mus musculus with 21 samples.

Results

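Newborn mouse testis was set against RNA of the whole newborn animal, gene by gene, on single-channel oligonucleotide arrays. The comparison used 4 of the 21 arrays of a series that followed the mouse testis from gestation day (gd) 11 to postnatal day (pnd) 2. The arrays were chosen by their labels alone: 3 held testis of pnd2, and 1 held the whole newborn reference. The pnd2 testes came from wild-type CD-1 males, an outbred stock, at Theiler stage 27. They were excised whole and not pooled, and the design text describes both testes of 1 animal per sample, no 2 animals sharing a dam. The whole newborn reference came from wild-type animals of pnd 0.5, also Theiler stage 27, and was a pool of 8 whole newborns, 4 male and 4 female. Its strain is not given, its RNA came from outside the study as a common standard, and it was hybridised once. Its source label and extract protocol name testis, which the title and the pooling notes of the same array do not, and the markers below were those of a whole body.

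The newborn testis consists of cords in which Sertoli cells enclose the germ cells, and of the tissue between the cords, with steroid-making fetal Leydig cells, vessels, macrophages and stroma. Sertoli cells of this age divide and secrete anti-Müllerian hormone, and the male germ cells are arrested prospermatogonia, in which the piRNA pathway holds transposons in check. The whole newborn holds all organs, the testes of its male members included, so each value below sets 1 organ against the mixture of all of them. In such bulk RNA, fewer cells of a type and less RNA per cell cannot be told apart.

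Over 18193 genes with a probe set of their own, 382 (2.1%) lay at least 4-fold higher on each of the 3 pnd2 arrays than in the reference, and 1517 (8.34%) lay at least 4-fold lower on each. The higher genes were led by genes of Sertoli cells and germ cells. The lower genes were led by genes of liver, exocrine pancreas, gut, skeletal muscle and skin. Differences are log2 values, the mean of the 3 pnd2 testes minus the reference, taken after adding 22.4 to each intensity, and they understate the change of dim genes. An intensity below 71.6 is called near background, and a fold against such a value is given as a lower bound. The log2 difference of a gene that is near background on one side depends on the added value and is no bound. The reference has no replicate, so no difference below carries a test, and only the spread of the 3 pnd2 testes is known.

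**Figure D1:**
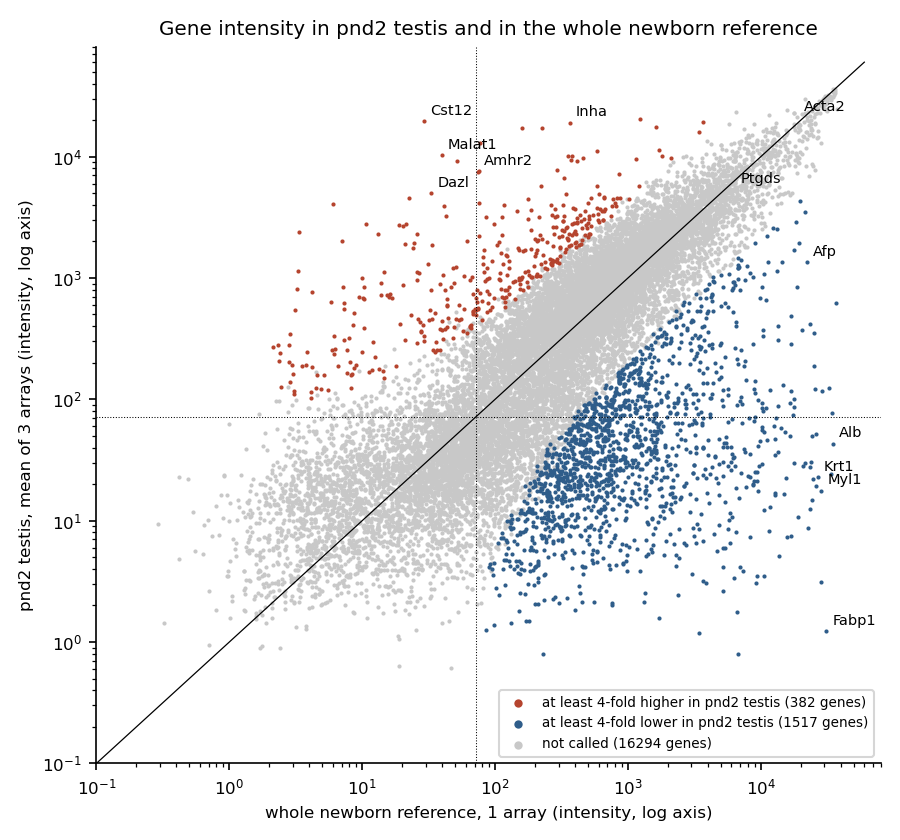
Each point is 1 gene, with its mean intensity over the 3 pnd2 testes on the vertical axis and its intensity in the whole newborn reference on the horizontal axis, both logarithmic. The dotted lines mark the background level of 71.6 and the solid line equal intensity; 382 genes were called higher (red) and 1517 lower (blue).

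The pnd2 testes were alike. Their Pearson correlations over all probe sets ran from 0.976 to 0.979, against 0.806 to 0.812 with the reference. The median SD of the 3 differences was 0.16. Of 14553 genes above background in either group, 7607 (52.3%) stayed within 2-fold of the reference on all 3 arrays. The median difference over all genes was -0.02. Many genes had a level on 1 side only: the pnd2 mean was near background for 1081 of the 1517 lower genes, and the reference for 157 of the 382 higher ones. Control probe sets for the ends of the beta-actin and Gapdh transcripts gave 3' to 5' ratios of 1.33 to 1.42 and 0.667 to 0.702 on the pnd2 arrays, against 1.37 and 0.821 on the reference. The probe set for the 5' end of 18S ribosomal RNA read 396 to 1461 on the pnd2 arrays, against 63.8 on the reference, and the pyruvate carboxylase control ratio was 1.57 to 1.86, against 13.8. Whether these have a part in the differences was not tested.

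Of the 4 genes used to mark the samples, 3 belong to the testis and 1 to the liver. Cst12, a cystatin gene of Sertoli cells, read 18929, 19094 and 20476 in the pnd2 testes, against 29.3 in the reference, at least 272-fold higher in testis (difference 8.56). Amhr2, the receptor for anti-Müllerian hormone, read 7373, 7321 and 7829 in the testes, against 74.4 in the reference (6.28). Dazl, an RNA-binding protein of germ cells, read 3789, 5422 and 5704 in the testes, against 33.0 in the reference (6.47). Alb, serum albumin of the liver, went the other way, with 26.6, 2.92 and 99.7 in the testes, against 34607 in the reference (-9.34). The groups did not overlap for any of the 4. With 1 reference array this is common: of all 18193 genes, 7191 lay above and 7694 below it on all 3 arrays. The 3 albumin values of the testes ran from far below background to just above it, whereas the 3 Cst12 values lay close together.

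Sertoli cell genes were the group farthest above the reference. Of 23 measured members of the Sertoli list, 18 were higher and 0 lower, with a median difference of 4.57, against -0.02 over all genes. With values below background raised to it, the median was 4.28, and those of the germ cell, piRNA, meiosis, liver and skeletal muscle lists, described below, were 2.13, 1.99, 1.41, -7.22 and -6.08. Amh, the hormone that removes the female duct in males, read 2103, 2132 and 2933 in the pnd2 testes, against 3.37 in the reference, at least 33.4-fold higher in testis. Defb19, a beta-defensin gene of Sertoli cells, read 10502, 13496 and 14892 in the testes, against 76.9 in the reference (7.02). Neither of these secreted products was clearly above background in whole-body RNA. Dmrt1, a transcription factor that maintains male fate in the gonad and is also found in germ cells, read 4205, 4602 and 4905 in the testes, against 22.5 in the reference (6.67). Aard, a small alanine- and arginine-rich protein, read 16178, 17204 and 18161 in the testes, against 226 in the reference (6.11).

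The inhibin chains formed a graded set. Inha, the alpha chain, read 18957, 19765 and 18311 in the testes, against 365 in the reference (5.62). Inhbb, the beta-B chain with which it forms inhibin B, read 8249, 7180.2 and 7702 in the testes, against 293 (4.61), and Inhba, the beta-A chain, read 3278, 3124 and 2319.8, against 415 (2.73). The alpha chain thus stood farther above the reference than either beta chain on every testis array. Among ligands and receptors, Dhh, the hedgehog ligand that Sertoli cells send to the interstitium, read 6007, 5146 and 5860.4 in the testes, against 223 in the reference (4.53). Gdnf, the growth factor that sustains spermatogonial stem cells, read 644, 896 and 976 in the testes, against 10.3 (4.70), and Fshr, the receptor for follicle-stimulating hormone, read 747, 896 and 733, against 33.1 (3.87). All values of the 2 groups were apart for these genes, as they were for most genes compared.

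Cst9, a further cystatin gene, differed between the testes themselves. It read 4643, 777 and 6826 in the 3 testes, against 6.06 in the reference, so that its difference ran from 4.81 to 7.91 between arrays. Its lowest testis value still lay far above the reference. The 5 Sertoli genes that were not called were Clu, Vnn1, Sox9, Mro and Ptgds. Sox9, the transcription factor that directs Sertoli fate and is also used in cartilage, read 1079, 985 and 1159 in the testes, against 489.9 in the reference (1.10). Ptgds, a prostaglandin D synthase also made by the brain coverings, read 4616, 6525 and 5040.3 in the testes, against 6312 in the reference (-0.24), and here the groups overlapped. Clu, the secreted chaperone clusterin, read 21366, 22594 and 25367 in the testes, against 6468 in the reference (1.83), above it on every array but short of 4-fold.

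**Figure D2:**
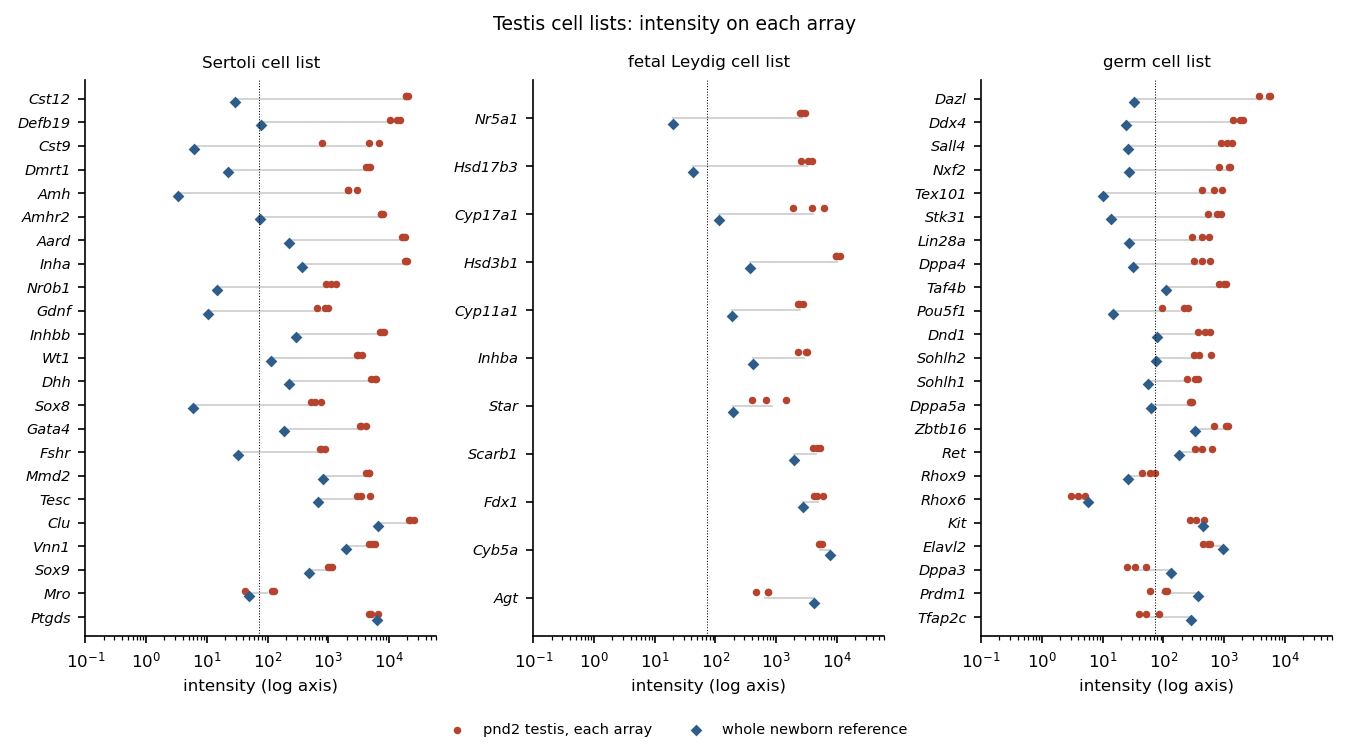
Intensity on a logarithmic axis of every measured member of the Sertoli, fetal Leydig and germ cell lists, with the 3 pnd2 testes as red dots and the whole newborn reference as a blue diamond; the dotted line is the background level. 18 of 23 Sertoli genes, 6 of 11 genes of the fetal Leydig and steroidogenesis list and 9 of 23 germ cell genes were called higher. Agt was the member called lower.

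Transcription factors of the gonad followed. Of 14 measured, 8 were higher and 0 lower, with a median of 3.55. This is not a separate set of genes. Nr0b1, Wt1, Gata4, Sox8, Sox9 and Dmrt1 are also in the Sertoli list, and Nr5a1 is in the fetal Leydig list. Lhx9, Tcf21 and Nr2f2 are also in the interstitial list. Nr5a1, the nuclear receptor that drives gonadal and adrenal steroidogenesis, read 2944, 2454 and 2643 in the testes, against 20.2 in the reference (5.98), while its other probe set was near background in both groups. Nr0b1, its nuclear receptor partner DAX1, read 1331, 923 and 1094 in the testes, against 14.6 (4.93). Wt1, the Wilms tumour factor also used in kidney, read 3079.9, 2931 and 3531 in the testes, against 112 (4.57). Each of these was higher on all testis arrays, and the first 2 were near background in the whole body. Gata4, Sox8, Lhx9 and Tcf21 differed by 4.13, 4.52, 4.08 and 3.02, while Emx2, a factor of the early urogenital ridge, read 106, 103 and 158 in the testes, against 129 in the reference (-0.09).

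Genes of the fetal Leydig cell and steroidogenesis list were mostly higher. Of 11 measured members, 6 were higher and 1 lower, with a median of 2.73. Cyp11a1, the side-chain cleavage enzyme that opens steroid synthesis, read 2751, 2343 and 2288 in the testes, against 185 in the reference (3.58). Hsd3b1, the next enzyme of the pathway, read 11435, 9496 and 9503 in the testes, against 377 (4.66). Hsd17b3, which makes testosterone from androstenedione, read 3331, 3850.0 and 2544 in the testes, against 42.6 (5.63). Its mean rose from 1763 at gd16 to 3242 at pnd2. That of Star fell from 3301 to 843 by the probe set used and from 6817 to 1443 by another. Which testis cells made each product was not tested. All 3 enzymes were above the reference on every array. Cyp17a1, the enzyme that makes androgens from progestogens, read 3882, 1914 and 6216 in the testes, against 116 (4.71), so the testes differed more among themselves in it than in the other enzymes.

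Star, the carrier of cholesterol into mitochondria, varied in the same way, with 670.0, 399 and 1459 in the testes, against 191 in the reference (1.83). It was not called by this probe set, the one brightest in the average of testis and reference. Its other probe sets were brighter in testis, with pnd2 means of 1443 and 1289, against 843. They gave 3.82 and 3.59, both at least 4-fold on every array. Agt, angiotensinogen, a liver product that fetal Leydig cells of the mouse also make, was the member below the reference, with 725, 471 and 740.2 in the testes, against 4272 (-2.71). The genes of cholesterol synthesis, which feed the pathway, did not stand apart: of 18 measured, 0 were higher and 0 lower, with a median of -0.07. Hmgcs1, an early enzyme of that synthesis, read 11574, 11332 and 8812 in the testes, against 11254 in the reference. Adrenal markers, which share some of these enzymes, gave 0 higher and 2 lower of 10, beside 2.1% and 8.34% of all genes. The adrenal enzyme Cyp21a1 read 72.3, 82.0 and 88.8 in the testes, against 88.0 in the reference.

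Germ cell genes split. Of 23 measured, 9 were higher and 0 lower, with a median of 2.17. Ddx4, the RNA helicase VASA of the germ line, read 1399.6, 2040.4 and 1841 in the testes, against 24.1 in the reference (5.24). Sall4, a factor of stem cells and spermatogonia, read 900.0, 1344 and 1105 in the testes, against 25.8 (4.54). Nxf2, an X-linked RNA export factor, Tex101, a germ cell surface protein, and Stk31 differed by 4.49, 4.37 and 4.35. Tfap2c, Prdm1 and Dppa3, which act in primordial germ cells and also in other tissues, differed by -1.99, -1.79 and -1.44, all below the reference and not called. Kit, a receptor used by germ cells, blood and pigment cells, read 349.6, 279 and 468 in the testes, against 455 in the reference, so the groups overlapped. Of the testes, number 1 was the lowest for Dazl, Ddx4, Sall4, Nxf2, Tex101 and Stk31 alike.

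The piRNA pathway had 10 higher and 0 lower of 18 measured members, with a median of 2.84. Mael, a component of germ granules, read 2154, 3410.3 and 2799 in the testes, against 10.8 in the reference, at least 38.9-fold higher. Tex19.1, a protein that limits transposons, read 1695, 2717 and 2440.5 in the testes, against 13.2 in the reference (5.99). Piwil2, the PIWI protein MILI, read 959.9, 1123 and 1286 in the testes, against 82.4 (3.44). The other PIWI genes were dim: Piwil4 (MIWI2) read 98.0, 129 and 51.4 in the testes, against 22.6, and Piwil1 (MIWI), a protein of adult meiotic cells, read 30.0, 48.6 and 21.6, against 4.75. Tudor proteins were unequal, with Tdrd5, Tdrd12 and Tdrd1 at 3.62, 3.28 and 2.85, and Tdrd7, which also acts in the lens, at -0.32.

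Meiosis genes were also above the reference, although meiosis lies ahead of this stage in males. Of 21 measured, 10 were higher and 0 lower, with a median of 2.61. Tex12, a part of the synaptonemal complex, read 555, 835 and 706 in the testes, against 9.47 in the reference (4.48). Sycp3, of the chromosome axis, read 419, 653 and 595 in the testes, against 70.2 (2.62), and Stag3, a meiotic cohesin, read 648, 938 and 959, against 46.2 (3.65). Of the members not called, Dmc1, the meiotic strand-exchange enzyme, read 60, 76.7 and 92.0 in the testes, against 29.1 in the reference, Spo11, which makes the breaks, read 59.1, 126 and 64.7, against 19.9, and Msh4 read 53.5, 48.8 and 24.9, against 24.4. Stra8, a gene that retinoic acid induces before meiosis, read 465, 249 and 865 in the testes, against 50.7 (2.74), with more spread between the testes than the axis genes. Of the 10 higher genes, 9 had a reference value near background, and with a pseudocount of 100 only 3 meiosis genes were called, and 4 piRNA genes.

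Promoters of these genes were read from RefSeq on build GRCm38.p6, 250 bases before to 50 after the annotated start, on the gene's strand. Windows existed for 14452 of the 18193 genes compared, some with several starts, and a gene counts where any of its windows holds the letters. Letters were searched on both strands for 4 motifs: CAAGGTCA, the site of NR5A1; TGACGTCA, the cyclic AMP response element; CACGTG, the E-box of factors such as MAX and MGA; and TATAAA, the TATA box. None contains another. The E-box letters stood in 7 of 16 piRNA genes, 6 of 18 meiosis genes and 4 of 12 germ cell genes, called or not. These lists had more windows than genes. Counted by window, the letters stood in 8 of 25 piRNA, 7 of 21 meiosis and 5 of 21 germ cell windows, beside 8.72% of all windows. Over all genes compared they stood in 10.2%, over the higher genes in 12.7% and over the lower genes in 6.88%. In the Sertoli list they stood in 2 of 13, in the liver list in 0 of 18 and in the skeletal muscle list in 0 of 17. The letters CACGTG hold a CG pair, and these lists had fewer CG pairs per window, with medians of 12, 4 and 6. The piRNA, meiosis and germ cell lists had medians of 17.5, 18 and 19.5. The part of CG content in the E-box counts was not tested.

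The promoters of Mael, Sycp3 and Ddx4 are shown because each carries the E-box letters, in capitals, and each gene was far above the reference; that of Amhr2 is shown for the NR5A1 letters, in capitals.
Mael, chr1:166238695-166238994, minus strand, piRNA pathway: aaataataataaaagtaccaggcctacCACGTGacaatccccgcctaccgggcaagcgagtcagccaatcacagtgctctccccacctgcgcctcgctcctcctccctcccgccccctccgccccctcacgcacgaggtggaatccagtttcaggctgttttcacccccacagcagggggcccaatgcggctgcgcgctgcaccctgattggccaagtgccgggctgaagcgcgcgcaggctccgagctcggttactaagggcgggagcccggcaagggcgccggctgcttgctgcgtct
Sycp3, chr10:88459337-88459636, plus strand, meiosis: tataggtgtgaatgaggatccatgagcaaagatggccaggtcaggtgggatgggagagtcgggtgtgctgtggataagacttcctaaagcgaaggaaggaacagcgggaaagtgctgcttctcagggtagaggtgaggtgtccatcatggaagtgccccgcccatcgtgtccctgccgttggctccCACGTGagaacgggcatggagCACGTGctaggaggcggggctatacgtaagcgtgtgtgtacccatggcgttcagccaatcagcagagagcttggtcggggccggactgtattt
Ddx4, chr13:112652261-112652560, minus strand, germ cell: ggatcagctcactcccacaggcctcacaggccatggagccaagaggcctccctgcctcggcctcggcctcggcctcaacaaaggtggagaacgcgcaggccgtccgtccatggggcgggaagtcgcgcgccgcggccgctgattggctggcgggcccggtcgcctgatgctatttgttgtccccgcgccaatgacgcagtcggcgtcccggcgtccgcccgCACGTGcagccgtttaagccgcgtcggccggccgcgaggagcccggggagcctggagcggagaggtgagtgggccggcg
Amhr2, chr15:102445117-102445416, plus strand, Sertoli cell: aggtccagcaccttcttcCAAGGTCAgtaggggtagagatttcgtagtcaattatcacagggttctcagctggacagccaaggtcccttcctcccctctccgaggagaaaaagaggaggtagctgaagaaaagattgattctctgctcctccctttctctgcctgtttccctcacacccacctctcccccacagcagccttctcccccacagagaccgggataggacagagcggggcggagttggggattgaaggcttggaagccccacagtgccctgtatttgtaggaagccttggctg
The E-box lay 223 bases before the start in Mael and 29 in Ddx4, while Sycp3 held 2, the farther at 64 bases. The NR5A1 letters lay 232 bases before the start of Amhr2, in 1 of 13 Sertoli and 0 of 6 Leydig promoters, 2.74% of the higher genes, 2.32% of the lower genes and 1.58% of all. The TATA letters stood in 9.93% of the higher genes, 25.7% of the lower genes and 11.5% of all, and the cyclic AMP element in 2.40%, 1.29% and 2.92%. The lower genes also had fewer CG pairs in this window, with a median of 5.50, against 18 in the higher genes and 17 in all genes compared. These matches describe letters and do not show that a factor binds.

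Among the 20 genes farthest above the reference, those not yet described include enzymes and RNAs outside the lists. Gstm6, a glutathione transferase, read 8357, 9882 and 9159 in the testes, against 51.3 in the reference (6.95). Akr1cl, an aldo-keto reductase, read 18115, 17045 and 16521 in the testes, against 159 (6.57). Malat1, a long non-coding RNA kept in the nucleus, read 9487, 13121 and 8085 in the testes, against 39.6 (7.34). Malat1 is made by most cell types, and its probe sets were unequal: 5 of its 7 were called higher, and all lay above the reference, between 1.06 and 7.34. Tmem114, Serpina3a, Slc25a31, a germ cell ADP/ATP carrier, and Tulp2 differed by 6.10, 5.95, 6.02 and 5.57. Roles are not given here for the X-linked loci AU015836, which differed by 6.28, and 4930550L24Rik, which read 2702, 3329 and 2398 in the testes, against 21.5 in the reference.

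**Figure D3:**
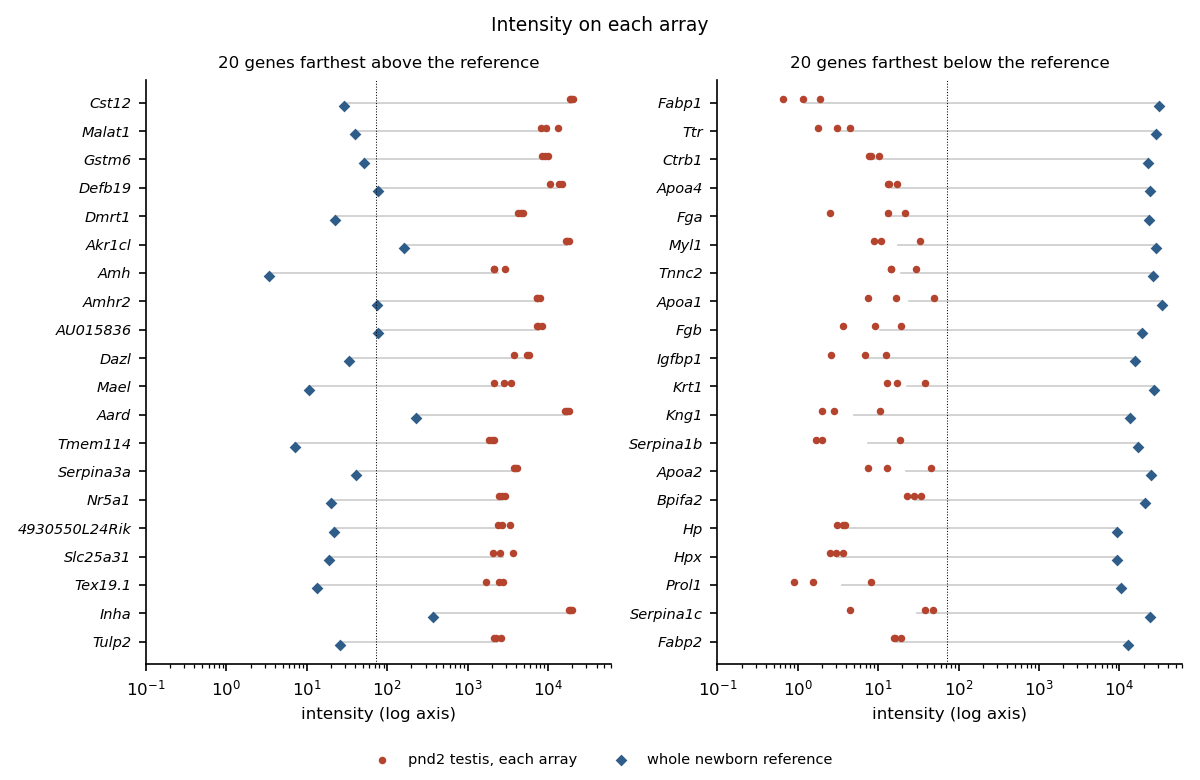
Intensity on a logarithmic axis of the 20 genes farthest above (left) and below (right) the reference, with each pnd2 testis as a red dot and the whole newborn reference as a blue diamond; the dotted line is the background level. The testis dots lie close together in the left panel, from Cst12 (8.56) to Tulp2 (5.57), and near or below background in the right panel, from Fabp1 (-10.35) to Fabp2 (-8.35).

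Other nuclear or long RNAs did not share one direction. Neat1, another nuclear non-coding RNA, read 671, 594 and 435 in the testes, against 400.5 in the reference (0.46). Srrm2, a splicing factor, gave 4.42 by its brightest probe set but -0.38 by another. Rian, an imprinted non-coding RNA, differed by -2.57 and -3.35 with its brighter probe sets, against 2.11 and 1.70 with its dimmer ones. Disagreement between probe sets was common. Of the 382 higher genes, 146 had 2 or more probe sets above background; in 50 every such probe set was called higher, and in 13 at least 1 lay at or below the reference, Sdc4 and Exoc3l2 among them. At least 1 probe set was called higher in 933 genes and lower in 1631 genes, and Gnas, Tpm1 and Zfp991 had 1 of each.

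Stroma, vessels and contractile cells, which the testis shares with the rest of the body, lay nearer to the reference. Of 16 interstitial progenitor genes, 3 were higher and 0 lower, with a median of 0.80. On all 3 arrays 9 lay above the reference and 5 below it, with the lowest member at -1.70. Among the higher was Gli1, a hedgehog target, with 1348, 1209 and 1401 in the testes, against 266 in the reference (2.21). Ptch1, the hedgehog receptor and a target itself, read 6753, 7001 and 6963 in the testes, against 2527 (1.44), above the reference on every array. Pdgfra and Igf1, of stromal cells, differed by 2.04 and 1.93. Smooth muscle genes split by kind. Acta2, smooth muscle actin, read 16867, 21809 and 24565 in the testes, against 18800 in the reference (0.15), and Myh11, smooth muscle myosin, read 1250.4, 2270.0 and 2448, against 1880.0 (0.02), so both groups overlapped. Des, desmin of all muscle, read 196, 169 and 226 in the testes, against 6765 (-4.96), and Actg2, the actin of gut smooth muscle, read 479, 895 and 1009.8, against 6914 (-3.15). Of 13 endothelial genes 1, Vwf, was lower, close to the share over all genes (8.34%), with a list median of -1.38.

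Dividing-cell genes sat above the reference as a group without reaching 4-fold. Of 21 measured, 19 lay above it on all 3 arrays, beside 7191 of all 18193 genes. Among them 1, the checkpoint kinase Bub1, was called higher, though its other probe set lay at 0.24. The list median was 1.40. Cdk1, the mitotic kinase, read 4546, 5125 and 5383 in the testes, against 1453 in the reference (1.77), and Mki67 read 4292, 4620.2 and 4426, against 3743 (0.25). Ribosomal protein genes had a median of -0.07, with all members but Rps6 (-0.84) within -0.23 and 0.09. 10 common reference genes ranged from -1.77 for Pgk1 to 1.10 for Tbp. Of 20 imprinted genes 1, Rian, was called lower, beside 8.34% of all genes. Dlk1 read 16246, 16107 and 19194 in the testes, against 19228 in the reference, and Cdkn1c, a growth inhibitor, 2874, 2501 and 2737, against 10705.

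Families with members in several organs held members on both sides of the reference. Among 14 cystatins and beta-defensins, Cst12, Cst9, Defb19 and Defb42 were higher (the last with 3.66), while Csta1 and Cst6 of the epidermis and Defb1 of epithelia were lower, with -6.75, -5.95 and -3.78. Among tight junction genes, Cldn11, the claudin of the Sertoli cell barrier, read 671, 745 and 851 in the testes, against 211 in the reference (1.73), while the epithelial claudins Cldn7, Cldn4 and Cldn3 differed by -4.63, -4.27 and -3.75. Among nuclear receptors, Rara, the retinoic acid receptor alpha, read 731, 629 and 691 in the testes, against 16.8 (4.17), while Rarb and Rarg differed by -1.86 and -1.18, and Hnf4a and Pparg, of liver and fat, by -6.10 and -3.82. Among 33 Hox genes, 1 was higher and 3 lower, close to the shares over all genes (2.1% and 8.34%), and 18 were near background in testis. The higher one was Hoxd9 (2.73), its neighbours Hoxd10 and Hoxd8 lay at 2.26 and 1.49, and Hoxc13, Hoxb5 and Hoxa5 were lower. Rhox13, a germ cell homeobox gene on the X chromosome, read 152, 178 and 294 in the testes, against 2.35 in the reference (3.17).

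Sex-linked genes set testes of males against a pool of both sexes. Xist, the RNA that silences the second X in females, read 33.9, 37.2 and 56.1 in the testes, against 1903 in the reference with its 4 females (-4.91). The Y-linked genes Eif2s3y, Kdm5d and Uty differed by 1.28, 1.34 and 1.47, and Usp9y read 232, 362 and 338 in the testes, against 7.35 in the reference (3.46). The first 3 were thus above the reference by less than 4-fold. Of 14 ovary markers, 8 were near background in the testes and 6 in the reference. Foxl2, a factor of ovarian granulosa cells, read 127, 146 and 134 in the testes, against 161 in the reference. Irx3 was the member called lower (-2.68), 1 of 14, beside 8.34% of all genes.

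Liver genes were the group farthest below the reference: all 22 measured were lower, with a median of -8.51, and 19 were near background in testis. Fabp1, the liver fatty acid binding protein, read 0.65, 1.15 and 1.90 in the testes, against 30880.2 in the reference (-10.35), at least 431-fold lower. Ttr, transthyretin, read 3.05, 1.81 and 4.48 in the testes, against 28174 (-10.11), and Apoa1, the main apolipoprotein of HDL, read 49.5, 16.6 and 7.37, against 33820 (-9.60). The fibrinogen chains Fga and Fgb differed by -9.44 and -9.20. Afp, alpha-fetoprotein, kept the highest testis level of the list, with 1083, 1588 and 1357 in the testes, against 22284 in the reference (-4.05). The plasma protein genes Ahsg and Vtn also had testis means above background. Ahsg read 204, 224 and 133 in the testes, against 25039 in the reference. Vtn read 119.6, 86.8 and 88.2 in the testes, against 9466 in the reference. Other liver products among the 20 farthest below were Igfbp1, Kng1, Serpina1b, Apoa2, Hp, Hpx and Serpina1c, between -9.22 and -8.51.

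In skeletal muscle the whole list was below the reference, with all 23 measured genes lower and a median of -5.90. Myl1, a fast myosin light chain, read 8.96, 33.3 and 10.8 in the testes, against 28441 in the reference (-9.52). Tnnc2, fast troponin C, read 14.5, 29.2 and 14.6 in the testes, against 25852 (-9.29). Myod1, the factor that sets muscle fate, read 22.1, 49.0 and 10.9, against 401 (-3.16). Of 17 heart genes 10 were lower (median -3.97), led by Myl2 (-8.27) and Actc1 (-7.48). Tnni3, cardiac troponin I, went against the heart list, with 2078, 1531 and 1734 in the testes, against 714 in the reference (1.28), above it on every array.

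Genes of epithelia and glands were mostly lower. In skin 18 of 19 genes were lower (median -5.85), with Krt1, a keratin of the upper epidermis, at 12.8, 38.7 and 17.2 in the testes, against 26742 in the reference. In pancreas 12 of 13 were lower (-6.56), with Ctrb1, chymotrypsinogen, at 7.61, 8.23 and 10.3 in the testes, against 22529. In stomach and intestine 15 of 17 were lower (-4.52), led by Apoa4 and Fabp2 of the enterocyte (-9.35 and -8.35). The salivary and lacrimal genes Bpifa2 and Prol1 differed by -8.67 and -8.68. In lung 9 of 11 were lower (-4.65), led by the surfactant gene Sftpc (-6.93), and in kidney 5 of 10 (-2.48). Of 10 markers of mesonephros and ducts, which adjoin the testis, 5 were lower, and Cdh1, epithelial cadherin, read 220.2, 314 and 286 in the testes, against 3448. Lhx1, of mesonephros and germ cells, went the other way, with 260.3, 301 and 201 in the testes, against 57.5 (1.78).

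Cartilage and bone had 11 of 15 lower (-4.09), led by Col2a1, the collagen of cartilage (-8.47), and Ibsp, bone sialoprotein (-8.04). Col1a1, the collagen of most connective tissue, read 15361, 15265 and 18609 in the testes, against 23831 in the reference (-0.54). Fat had 8 of 9 lower (-5.68), with Ucp1 of brown fat at 30.2, 12.2 and 7.63 in the testes, against 14961, while Cidea, also of brown fat, kept 1028, 778 and 734 in the testes, against 10261. In the eye 6 of 9 were lower (-5.19), led by the lens crystallins Cryba1 and Cryaa (-7.62 and -6.82). Neural genes had 13 of 21 lower (-2.89), led by the neuronal genes Stmn2 and Gap43 (-5.94 and -5.13), whereas Map2 read 1399, 1508 and 1494 in the testes, against 2500.0 (-0.76).

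Blood cells differed by kind. All 10 neutrophil genes were lower (-5.32), with S100a9, a neutrophil calcium-binding protein, at 233, 411 and 219 in the testes, against 16913 in the reference (-5.82). Macrophage and leukocyte genes were below the reference by less, with 3 of 14 called and a median of -1.93. All 14 lay below it on all 3 arrays, beside 7694 of all 18193 genes. Adgre1, the macrophage marker F4/80, read 197, 200.2 and 288 in the testes, against 523 (-1.14), and Csf1r, the macrophage growth factor receptor, read 1117, 1040.0 and 1085, against 10552 (-3.26). Of 10 erythroid genes 7 were lower (-3.57), led by Slc4a1, the red cell anion exchanger (-6.81); the probe set named Hba-a1 was near background in both groups.

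**Figure D4:**
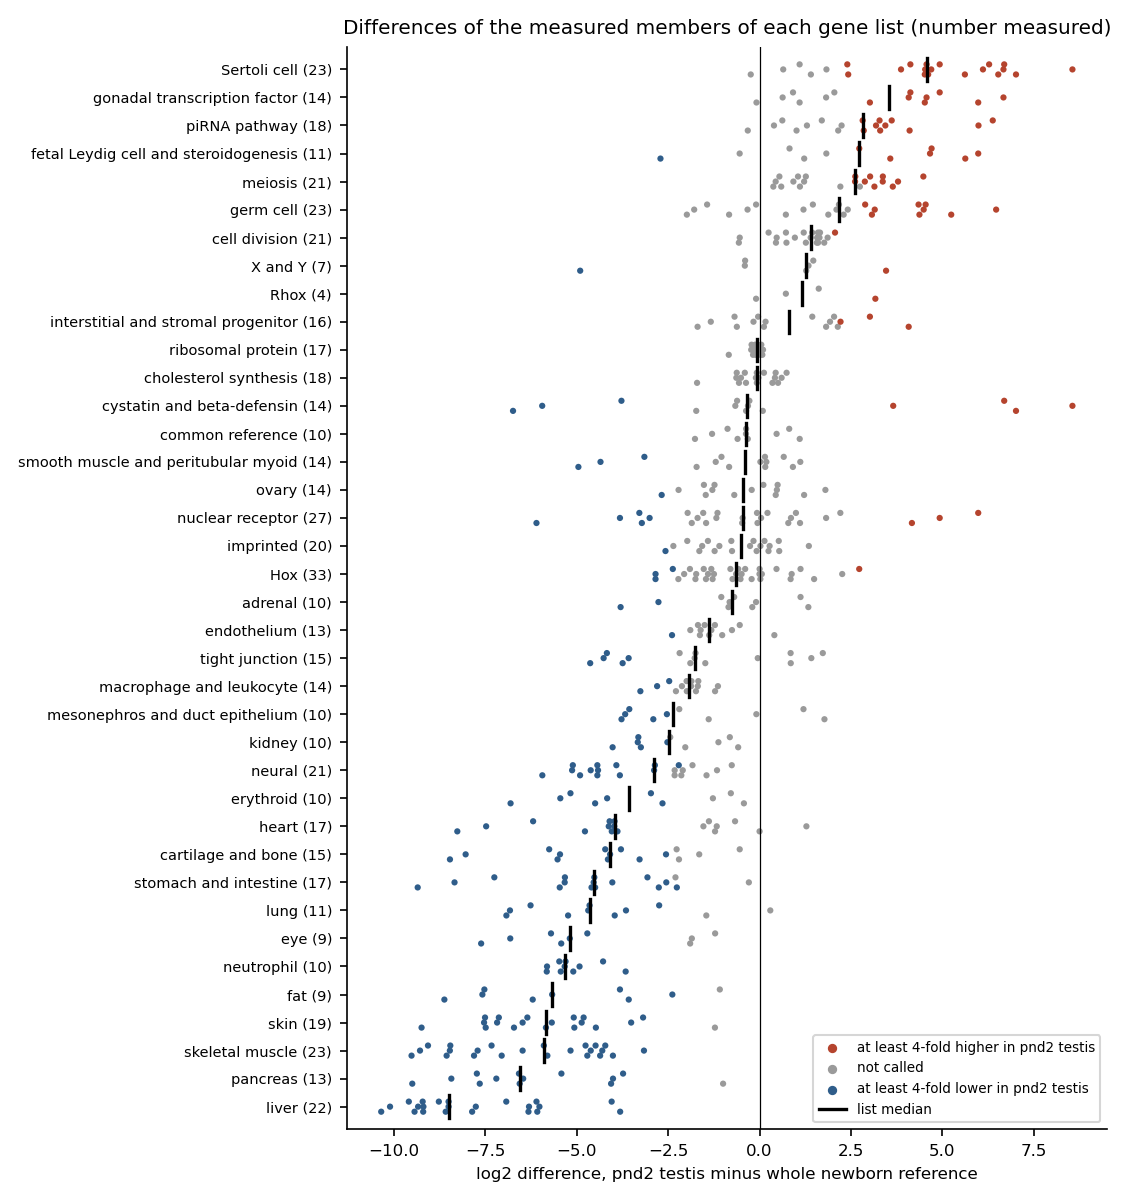
Log2 difference (pnd2 testis minus whole newborn reference) of each measured member of 38 gene lists, ordered by list median (black bar); red points were called higher, blue lower and grey not called. Medians run from 4.57 for Sertoli cells to -8.51 for liver, and the cystatin and beta-defensin list holds members called in both directions.

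Near the 4-fold threshold the calls separate genes with nearly equal values. On the high side Bub1 and Ercc6 lay just inside and Rmdn2 and Pwwp2a just outside, and the array nearest the reference gave 2.00 to 2 decimals for each of them. The mean differences were 2.06 and 2.21 inside, against 2.15 and 2.09 outside. On the low side Ly6g6e and Sigirr lay just inside, with mean differences of -2.23 and -2.14, and Csf2rb and Hsdl2 just outside, with -2.27 and -2.01.

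Earlier testis stages can be set beside the same reference array. Because all stages share it, an error in that array moves every stage alike, and only the stage values are given. The gd11 samples were pools of 2 and those of gd12 pools of 5, and later samples single animals. The Sertoli list median was 0.32 at gd11, 3.11 at gd12, 3.25 at gd14, 3.51 at gd16, 4.17 at gd18 and 4.57 at pnd2. Of the 3 gd12 pools, 1 stood apart in Xist, which read 87.7, 2616 and 40.5 on the gd12 arrays, beside 20.7 to 91.6 on the other 17 testis arrays. Without it the gd12 medians were 3.29 for the Sertoli list and -2.93 for smooth muscle. The germ cell list was highest at gd14 (4.46), the piRNA list at gd14 (4.36) and the Leydig list at gd16 (3.92). From gd12 on, smooth muscle genes came closer to the reference with age, with medians of -2.95 at gd12, -1.21 at gd16 and -0.41 at pnd2. The liver list stayed between -8.51 and -7.77 at all stages.

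Single genes gave the range behind these medians. Cst12 averaged 38.0 at gd11, 875 at gd14, 4365 at gd16, 16144 at gd18 and 19499.8 ± 849.6 (SD, n = 3) at pnd2, against 29.3 in the reference. Cyp17a1 averaged 6.78 at gd11, 26707 at gd16 and 4004 ± 2153 (SD, n = 3) at pnd2, against 116 in the reference. Tnni3 averaged 57.4 at gd11, 749 at gd16 and 1781 ± 276 (SD, n = 3) at pnd2, against 714 in the reference. Cst12 and Tnni3 thus were highest at pnd2, and Cyp17a1 was past its highest stage. Alb averaged between 39.4 (gd16) and 51.9 (gd14) over the stages, against 34607 in the reference.

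**Figure D5:**
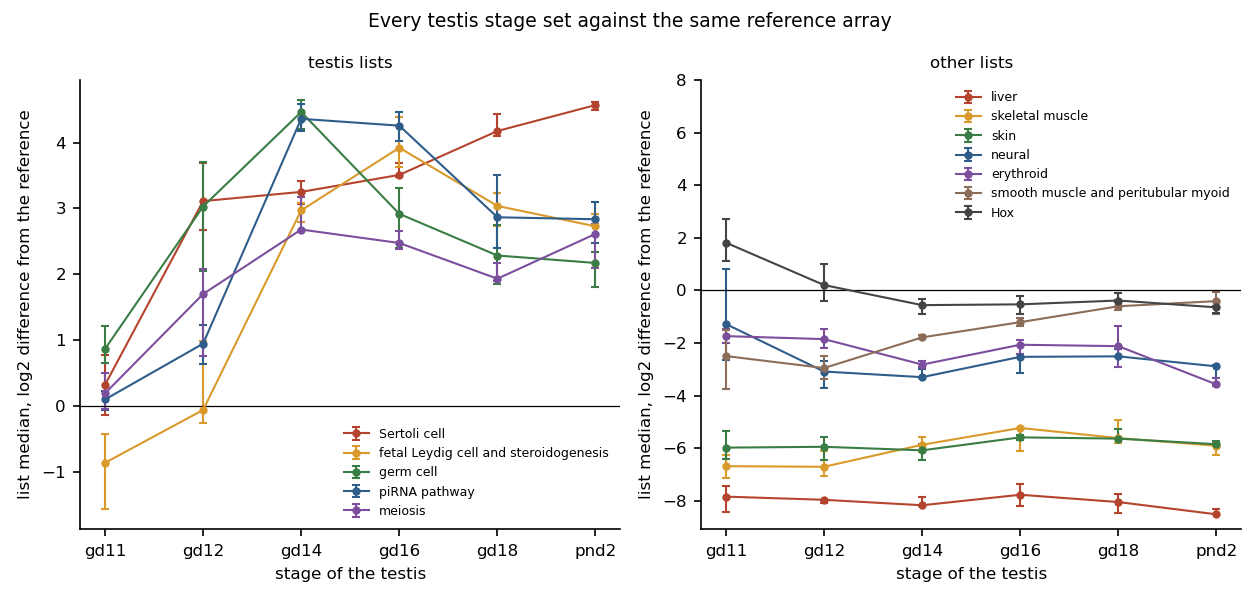
List medians of the log2 difference between each testis stage and the whole newborn reference, by stage. Points are medians over the differences of stage means. Whiskers run from each point to the lowest and highest median of single arrays (5 arrays at gd11, 3 at each later stage). A side on which no array median lies beyond the point has no whisker. The Sertoli list is highest at pnd2 (4.57), the germ cell list at gd14 (4.46), and the liver medians stay at or below -7.77.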

How the data were processed

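The deposited values were linear intensities per probe set on 21 single-channel arrays, made by the authors with GCOS (per the submitters' processing notes), of a version not given in the sources used here. As the values show, every array had the same trimmed mean, so the arrays were compared as deposited. The number of arrays limits the precision, and no batch is named in the labels. Per the labels, the 3 pnd2 testes were separate, unpooled samples.

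Of 45101 probe sets, 34945 named 1 gene, 932 several and 9160 none, and 64 were controls. Names came from the platform table, and 34741 matched an Entrez identifier of the GRCm38.p6 gene table, used for names and promoters only. For each gene the probe set was taken whose pnd2 mean and reference value had the highest average, on the scale log2(intensity + 22.4), the added value being percentile 20 of the testis arrays. Values below 71.6, percentile 40, are near background. A gene was called higher or lower when all 3 pnd2 arrays lay at least 4-fold from the reference and the brighter side was not near background. A fold bound divides the brighter side's mean intensity by the background level. Python 3.11.15, numpy 2.4.6 and pandas 2.3.3 were used, and the call rule was tested on simulated data.

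The reference is 1 array, so no test was made. Named genes were the 20 farthest from the reference in each direction, ranked by the smallest of the 3 differences; up to 6 called members of each list and members against its direction; the 4 markers; and the 2 genes on each side of each threshold. Further genes, such as Tnni3 at other stages, Neat1, Srrm2 and members that were not called, were chosen after their values were seen. The comparison, the lists and the rules were chosen with earlier results of these data known. Members of a list without a probe set naming only them were not compared. Alternatives covered the added value, low values, scaling, the probe set, the threshold, the stage and each replicate left out.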

Additional observations from a re-analysis of the deposited data

Results flagged for a closer look

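Probe sets that name no gene also differed. Of 9160, 158 lay at least 4-fold higher on all 3 pnd2 testes than in the whole newborn reference and 153 at least 4-fold lower. They drew attention because the comparison of genes does not use them. The farthest above was 1460582_x_at, with a mean of 5369 in the testes, against 17.9 in the reference (difference 7.05). A brighter one, 1455274_at, averaged 5682 in the testes, against 47.0 in the reference (6.33). Among single-gene probe sets, counted one by one, 3.25% were higher, against 1.72% of those with no gene.

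In 3 lists the median stood on opposite sides of the reference at pnd2 and at an earlier stage on every array of both stages. The fetal Leydig list had a median difference of 2.73 at pnd2, against -0.86 at gd11. The ovary list had -0.45 at pnd2, against 0.45 at gd16, with 8 of its 14 members near background at pnd2. The Hox list had -0.64 at pnd2, against 1.82 at gd11. These differences between stages were not tested, and all rest on the 1 reference array. No single sample could be checked as an outlier, since the groups hold 3 arrays and 1 array.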

How the results depend on the processing

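No paired analysis was possible because replicate numbers run on over the series, the reference is 1 array and no test was made. Under the alternatives, 490 of 561 counts stayed within 1.5 times their value, and no gene changed from higher to lower or back except Zfp991, lower by the probe set used here and higher by the one brightest over the testis arrays. Part of this agreement, and of that for named genes, was fixed in advance. The other thresholds and the restriction to genes above background reuse the same differences. A gene with 1 probe set cannot move when its probe set is chosen otherwise. Of 795 values for 49 named genes, 546 stayed within 1 SD of the pnd2 testes, 248 moved further with the same sign, and 1 reversed: Nr5a1 gave -0.32 with the probe set brightest in the reference, a choice made after seeing the data. That probe set was near background in both groups, with a mean of 28.5 in the testes, against 39.1 in the reference. Shifting the arrays to 1 median raised the median of all genes to 0.15, with 505 higher and 1336 lower genes, and left 1 of 2 adrenal genes lower.

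Set beside 382 higher and 1517 lower genes, an added value of 100 gave 212 and 943, a 2-fold threshold 1803 and 2960, an 8-fold threshold 140 and 818, and the 11576 genes above background in both groups alone 225 and 436.

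List counts that moved by more are given with the value of the report in brackets. With only genes above background in both groups, which drops every gene that has no more than a bound, genes higher were Sertoli cell 10 (18), cystatin and defensin 1 (4), germ cell 1 (9), gonadal factor 4 (8), meiosis 1 (10), nuclear receptor 0 (3), piRNA 2 (10) and genes lower were Hox 0 (3), adrenal 0 (2), cartilage and bone 3 (11), cystatin and defensin 0 (3), erythroid 2 (7), eye 0 (6), fat 2 (8), heart 6 (10), kidney 0 (5), liver 3 (22), lung 3 (9), neural 2 (13), neutrophil 5 (10), nuclear receptor 1 (5), pancreas 4 (12), skeletal muscle 8 (23), skin 6 (18), stomach and intestine 1 (15), tight junction 1 (5). With an added value of 1, genes higher were germ cell 14 (9) and genes lower were Hox 7 (3). With an added value of 100, genes higher were meiosis 3 (10), piRNA 4 (10) and genes lower were Hox 0 (3), adrenal 1 (2), kidney 1 (5), nuclear receptor 3 (5). With values floored at background, genes higher were meiosis 6 (10) and genes lower were Hox 1 (3). With a 2-fold threshold, genes higher were germ cell 14 (9), interstitial 8 (3), nuclear receptor 5 (3) and genes lower were Hox 11 (3), macrophage 13 (3), nuclear receptor 11 (5), smooth muscle 5 (3), tight junction 10 (5). With an 8-fold threshold, genes higher were interstitial 1 (3), meiosis 4 (10), piRNA 6 (10) and genes lower were Hox 0 (3), adrenal 1 (2), kidney 2 (5), macrophage 1 (3), mesonephros and duct 2 (5), nuclear receptor 3 (5). With gd18 in place of pnd2, genes higher were interstitial 5 (3) and genes lower were Hox 1 (3), adrenal 1 (2), erythroid 1 (7), macrophage 1 (3). With the median over probe sets, genes lower were macrophage 1 (3). With the probe set brightest over the testis arrays, genes lower were nuclear receptor 3 (5). With the probe set brightest in the reference, genes lower were macrophage 5 (3).

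Leaving out the gd12 pool that stood apart in Xist, and list medians with values below background raised to it, were also chosen after seeing the data. Neither turned the sign of a median that the report gives above with and without it. In other lists, leaving out that pool moved the gd12 median from -0.06 to 0.21 (fetal Leydig), from 0.01 to -0.02 (ovary) and from 3.03 to 2.56 (germ cell).

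Leaving out 1 pnd2 testis gave 412 to 448 higher and 1611 to 1650 lower genes, and 3 to 5 macrophage genes lower, with the value of 5 without replicate 1. With fewer arrays to pass, the rule is easier to meet, and all 382 higher and 1517 lower genes stayed called. Signal over background is a limit for 1081 of the lower genes, whose fold is only a bound, and the single reference array has no measured error.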

Other observations

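Gene families grouped by symbol were chosen after their values were seen. They are not separate from the lists: Hsd17b3, Rara, Krt1 and Apoa1, among others, are in both. Several families held members on both sides of the reference. Over all genes compared, 2.1% were higher and 8.34% lower. Of 7 mu-class glutathione transferases, 4 were higher in the pnd2 testes than in the whole newborn reference: Gstm6, Gstm2, Gstm7 and Gstm1, with differences of 6.95, 4.03, 2.84 and 2.39. Gstm3 was lower, with 185, 166 and 175 in the testes, against 1151 in the reference (-2.57). The calls of Gstm7 and Gstm3 depend on the probe set, since the other probe set of each lay at 0.01 and 0.09. The mu-class genes are alike in sequence, and signal shared between their probe sets was not tested. The 17-beta-hydroxysteroid dehydrogenases had 2 higher and 1 lower of 11, the lower count close to the share over all genes. Hsd17b1, which reduces estrone to estradiol, read 4318, 4285 and 3898 in the testes, against 75.1 in the reference (5.42). Hsd17b2, which runs in the oxidative direction, read 26.3, 5.97 and 4.06 in the testes, against 1824 (-5.80). Aldo-keto reductases had 3 higher and 7 lower of 14. Among them, Akr1c12 was at least 13.7-fold lower, with 40.1, 36.8 and 62.2 in the testes, against 983 in the reference.

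Basement membrane genes also lay on both sides of the reference. Of 6 type IV collagen chains, Col4a3 and Col4a4 were higher. Col4a4 read 2723, 2852 and 3237 in the testes, against 324 in the reference (3.09), and Col4a3, the chain it assembles with, read 358, 424 and 566, against 53.1 (2.62). Of 10 laminin chains, Lama1 and Lamc3 were higher (3.59 and 3.09), while Lamb3, a chain of the epidermal laminin, was lower (-2.40). That 1 lower of 10 is close to the 8.34% of all genes, and 2.1% of all genes were higher.

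Retinoid genes showed Stra6, the receptor that takes up retinol from its carrier, at 939, 825 and 973 in the testes, against 13.9 in the reference (4.68). Aldh1a1, which makes retinoic acid, read 17542, 18106 and 17278 in the testes, against 1633 (3.42). Rbp4, the blood carrier of retinol made by the liver, read 282, 264 and 384 in the testes, against 13434 (-5.36). The family counted 3 higher and 2 lower of 14, beside 2.1% higher and 8.34% lower of all genes.

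Among large families of other organs, 36 of 44 keratins, 16 of 18 genes named as apolipoproteins and 15 of 35 Cyp2 enzymes were lower. None was higher, and over all genes 8.34% were lower. Krt42 stood level with the reference, with 949, 813 and 1001 in the testes, against 846. The X chromosome carried 32 of the 382 higher genes (8.38%) and 33 of the 1517 lower genes (2.18%), beside 617 of all 18193 genes compared (3.39%). The testes and the reference also differ in sex, and its part in these shares was not tested.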
